A study of Arabidopsis thaliana with 6 samples.

Results

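The minor antenna of photosystem II is encoded in Arabidopsis thaliana by LHCB4.1, LHCB4.2, LHCB4.3, LHCB5, LHCB6 and LHCB7, and these 6 nuclear genes were taken by gene identifier. Of the 6, 4 were among the 3033 gene identifiers in the table of transcript differences analysed here: LHCB4.1, LHCB4.2, LHCB5 and LHCB6. The loci in that table, each called lower in pkl, were 14.8% of 19554 tests, the number implied by the p-values and q-values of the authors. LHCB4.3 (AT2G40100) and LHCB7 (AT1G76570) had no entry in it, and nothing is said of their level or direction. The RNA had been sequenced from whole seedlings grown in long days to an age of 14 days, in 3 libraries of the pkl mutant and 3 of the wild type (WT). The labels do not name the pkl allele or the ecotype. PKL is PICKLE, a CHD3-type remodeler of chromatin, and the comparison asks which transcripts depend on it.

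The light-harvesting proteins of this family bind chlorophyll a, chlorophyll b and carotenoids in the thylakoid membrane. Trimers of the major proteins LHCB1, LHCB2 and LHCB3 hold most of the antenna of photosystem II. The minor proteins are monomers that sit between those trimers and the photosystem core: LHCB4 is known as CP29, LHCB5 as CP26 and LHCB6 as CP24. LHCB4 and LHCB6 help to bind the trimer that contains LHCB3, and the minor proteins also take part in the dissipation of excess light energy. LHCB7 is a rarer member of the family.

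Each value is an FPKM, a fragment number divided by the length of the transcript and by the mapped total, and the 3 libraries of a genotype share 1 value. No replicate values were used, so the spread between libraries and their depth are unknown. Every one of the 2896 loci in the table had passed the authors' test at a q-value under 0.05 and was lower in pkl, so the table shows 1 side of the comparison. A fold below is the WT FPKM over the pkl FPKM, and a log2 fold change is the log2 of pkl over WT, so a negative value means lower in pkl. The mutated gene itself, PKL (AT2G25170), stood at 6.79 FPKM in pkl and 19.2 FPKM in WT. In whole seedlings, fewer green cells and less of a transcript per green cell cannot be told apart.

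The upstream sequences of the LHCB4.1, LHCB4.2 and LHCB6 genes are shown because a few short motifs fell in them, so they were picked for their matches. That of LHCB5, also listed, is not shown, since the 47 bases between its start and another annotated gene hold no match. The sequences are from the RefSeq copy of the genome (TAIR10.1), run 5′ to 3′ along each gene's strand and end at the base before the annotated start of the gene. The window was 250 bases, shortened where it ran into another annotated gene. Capitals mark matches, on either strand, to any of the motifs searched. The G-box is CACGTG, the I-box is GATAAG, and motifs written for the GLK factors are CCAATC and also GATTCT. The evening element is AAATATCT, the binding site of the clock factor CCA1 is AAAAATCT and the TATA box is TATAAA.
LHCB4.1, chr5:208616-208865, plus strand: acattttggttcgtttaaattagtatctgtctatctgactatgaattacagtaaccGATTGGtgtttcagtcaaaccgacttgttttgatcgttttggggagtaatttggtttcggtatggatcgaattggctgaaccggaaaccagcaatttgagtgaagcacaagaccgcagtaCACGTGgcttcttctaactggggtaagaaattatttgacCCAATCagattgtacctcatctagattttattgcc
LHCB4.2, chr3:2717367-2717556, plus strand: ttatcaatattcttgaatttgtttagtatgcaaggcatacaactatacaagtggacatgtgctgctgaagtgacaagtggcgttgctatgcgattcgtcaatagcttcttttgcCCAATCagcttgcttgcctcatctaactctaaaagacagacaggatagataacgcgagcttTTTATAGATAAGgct
LHCB6, chr1:5447881-5448059, minus strand: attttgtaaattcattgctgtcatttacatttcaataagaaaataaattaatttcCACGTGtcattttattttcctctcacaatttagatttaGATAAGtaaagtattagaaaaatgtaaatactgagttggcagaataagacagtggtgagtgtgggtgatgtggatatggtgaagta

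The G-box, a core sequence bound by light-regulated bZIP and bHLH factors, was present upstream of LHCB4.1, LHCB6 and the unlisted LHCB7, that is in 3 of the 6 members. It was present in 6.49% of the 250-base windows of all 27443 nuclear protein-coding genes. The I-box, a GATA-type motif, was present upstream of LHCB4.2 and LHCB6, against 12.3% of all windows. In LHCB4.2 it abuts a TATA box match on the opposite strand, and TATA box matches occur in 47.3% of all windows. CCAATC, which also contains a CCAAT box, occurred at 2 places upstream of LHCB4.1 and 1 place upstream of LHCB4.2, against 10.2% of all windows. GATTCT was in the full windows of LHCB5 and LHCB7, against 15.9% of all windows. The evening element (4.79% of all windows) and the CCA1 binding site (6.69%) were in none of the 6 windows. These matches are letters in a window and carry no measure of binding.

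The LHCB4.1 and LHCB4.2 windows also shared a pair of 9-base runs, looked up after the letters were seen. CCCAATCAG ended 28 bases before the start of LHCB4.1 and 69 bases before that of LHCB4.2. CCTCATCTA followed it in both genes and ended 13 and 52 bases before their starts. Among all windows, read on the gene's strand, 17 held the first run and 19 the second, and the 2 windows that held both were those of LHCB4.1 and LHCB4.2, the pair in which the runs had been found.

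All 4 listed members were lower in pkl by less than 2-fold, and they kept a high level in both genotypes. The fold ran from 1.31 for LHCB5 to 1.76 for LHCB4.2, with a median log2 fold change of -0.49. Read against the 14.8% of all tests, 4 of 6 is a share of 66.7%, and whether LHCB4.3 and LHCB7 were tested is not known.

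LHCB4.1 (AT5G01530), which encodes a CP29 protein, stood at 3007 FPKM in pkl and 4079 FPKM in WT, in a locus that also names AT5G01520. This was 1.36-fold lower in pkl (log2 fold change -0.44), with a Cuffdiff p of 0.0016 and a q of 0.00745 in the authors' deposited table. The pkl level was thus 73.7% of that in WT.

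LHCB4.2 (AT3G08940), the second CP29 gene, had the lowest level of the listed members and the largest fold. It stood at 989.5 FPKM in pkl and 1743 FPKM in WT, a 1.76-fold difference (log2 fold change -0.82). Its Cuffdiff p in the authors' deposited table was 5e-05 and its q was 0.000338. That p is the smallest value listed and is shared by LHCB6 and many other loci, so it does not rank LHCB4.2 above them. The pkl level was 56.8% of that in WT.

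LHCB5 (AT4G10340), the CP26 gene, had the highest level of the listed members and the smallest fold. It stood at 3644 FPKM in pkl and 4779 FPKM in WT, 1.31-fold lower in pkl (log2 fold change -0.39). Its Cuffdiff p was 0.0081 and its q was 0.0294 in the authors' deposited table, the weakest call among the listed members. The pkl level was 76.3% of that in WT.

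LHCB6 (AT1G15820), the CP24 gene, stood at 2489.8 FPKM in pkl and 3636 FPKM in WT. It was 1.46-fold lower in pkl (log2 fold change -0.55), and the Cuffdiff p and q in the authors' deposited table were 5e-05 and 0.000338. The pkl level was 68.5% of that in WT.

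**Figure D1:**
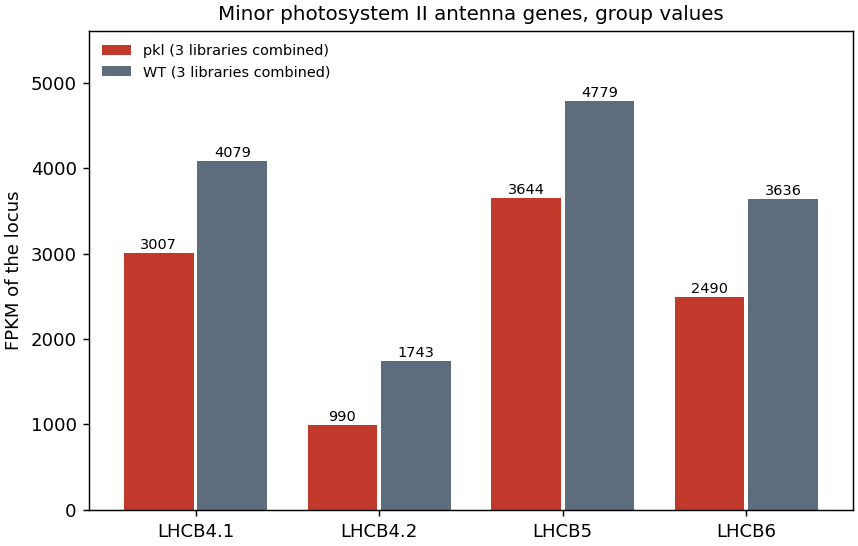
FPKM (vertical axis) of the 4 listed minor antenna genes in pkl (red, left) and WT (grey, right). Each bar is 1 group value that combined 3 libraries, so no error bar can be drawn. In both genotypes LHCB5 was highest, followed by LHCB4.1, LHCB6 and LHCB4.2.

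The order of the levels was the same in pkl and in WT, with LHCB5 above LHCB4.1, LHCB6 and LHCB4.2. Without replicate values it cannot be said which neighbours in that order differ beyond their spread. The sum over the 4 loci was 10130.5 FPKM in pkl and 14238 FPKM in WT, which is 1.41-fold lower in pkl. The makeup of that sum was close in both genotypes: LHCB5 made up 36.0% of it in pkl and 33.6% in WT, LHCB4.1 29.7% in pkl and 28.6% in WT, and LHCB6 24.6% in pkl and 25.5% in WT. LHCB4.2 made up 9.77% in pkl and 12.2% in WT.

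The CP29 genes had different folds in the table. LHCB4.2 gave 24.8% of the summed LHCB4.1 and LHCB4.2 level in pkl and 29.9% in WT, and the LHCB4.1 level was 3.04 times that of LHCB4.2 in pkl and 2.34 times in WT. The LHCB5 level was 1.46 times that of LHCB6 in pkl and 1.31 times in WT. These ratios rest on 1 value per genotype and gene, and their difference between genotypes was not tested.

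The members differ in coding sequence. Over 864 aligned coding bases, LHCB4.1 and LHCB4.2 were 81.9% identical. The longest run that their coding sequences share was 23 bases, at positions 562 to 584 of LHCB4.1 and 553 to 575 of LHCB4.2, counted from the first base of the start codon. It is shown because a read that lies in the coding sequence and is longer than this run differs between the CP29 genes.
Shared run of LHCB4.1 and LHCB4.2: atctcgacattgatatggatcga
LHCB4.3 was 72.8% identical to LHCB4.1 and 73.6% to LHCB4.2, with shared runs of at most 21 bases. For none of the 6 members did BLAST find a coding copy with an identity of 95% that covered 80% of the length.

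The loci of the table were wider than the genes for 3 of the 4 listed members. The LHCB4.1 locus (chr5:206172-210445, TAIR10) also names AT5G01520 (AIRP2), a RING protein gene on the same strand, and is 2.54 times as long as the LHCB4.1 gene. The LHCB4.2 locus (chr3:2717438-2722649) names LHCB4.2 alone but runs over AT3G08943, annotated as an ARM repeat protein, on the opposite strand. That neighbour overlaps the LHCB4.2 gene by 44 bases, and 71.9% of the locus lies in it. The LHCB6 locus (chr1:5444418-5447859) names LHCB6 alone and runs over AT1G15810, annotated as an S15/NS1 RNA-binding protein, on the opposite strand, with 62.4% of its length in that gene. A non-coding RNA gene, AT1G05207, is annotated on the opposite strand inside LHCB6, over 358 bases.

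The LHCB5 locus (chr4:6408016-6409677) held no other annotated gene. The LHCB4.1 value belongs to a locus that names AT5G01520 too, so a share may come from that gene whether or not the libraries kept strand. For LHCB4.2 and LHCB6 the protein-coding neighbour is on the opposite strand. The labels do not state whether the libraries kept strand, so a share of those values may also come from the neighbour. How large these shares are was not tested, since the table gives no separate value for AT5G01520, AT3G08943 or AT1G15810. In the reference annotation LHCB4.1, LHCB4.2, LHCB4.3 and LHCB6 each have 2 exons in the transcript with the longest coding sequence, and LHCB5 and LHCB7 have 6.

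**Figure D2:**
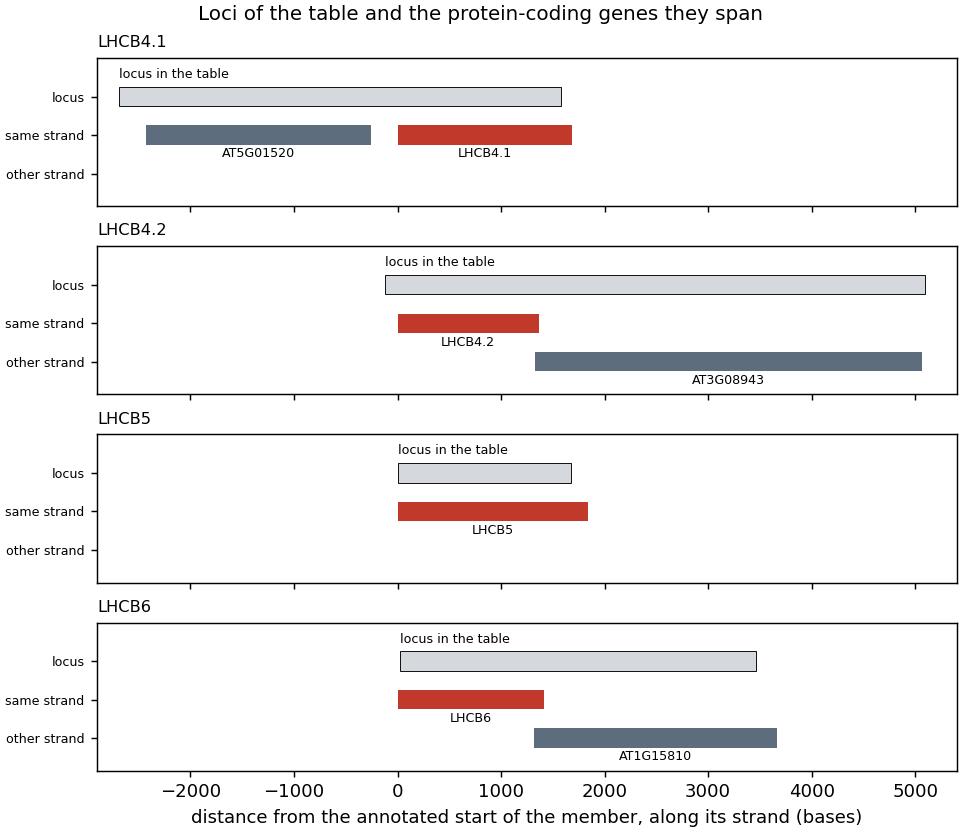
Loci of the table (light grey) and the annotated protein-coding genes they span, by distance in bases from the annotated start of the member along its strand (horizontal axis). The members are red and their neighbours dark grey, with genes on the member's strand above those on the other strand. The loci of LHCB4.1, LHCB4.2 and LHCB6 each span a neighbouring gene and that of LHCB5 does not.

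Among the 2896 listed loci the members ranked high in level and not in fold. By WT level, LHCB5 ranked 7, LHCB4.1 ranked 11, LHCB6 ranked 19 and LHCB4.2 ranked 36. The median listed locus was at 16.8 FPKM in WT and was 1.52-fold lower in pkl. A larger fold than that of LHCB4.2 was present at 34.6% of the listed loci, and a larger fold than those of LHCB6, LHCB4.1 and LHCB5 at 56.1%, 68.9% and 75.8%. Among the 55 listed loci with at least 1000 FPKM in WT, the fold ran from 1.19 to 2.67 with a median of 1.45. In that set LHCB4.2 ranked 11 by fold, LHCB6 ranked 25, LHCB4.1 ranked 37 and LHCB5 ranked 45.

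**Figure D3:**
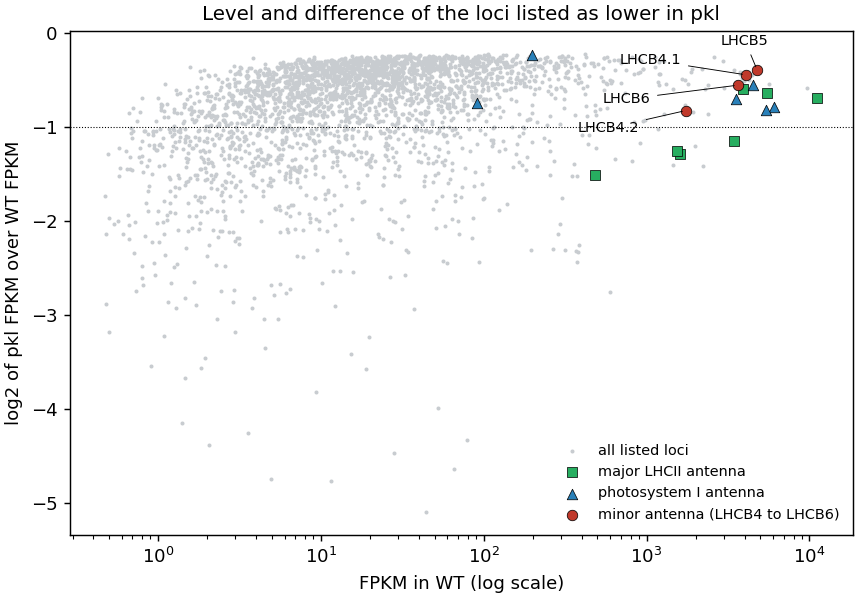
Log2 of pkl over WT FPKM (vertical axis) against FPKM in WT (horizontal axis, log scale) for the 2896 loci listed as lower in pkl. The minor antenna genes (red circles) sit between -0.39 and -0.82, all above the dotted line at a 2-fold difference, while 4 of the 7 listed major antenna genes (green squares) lie below it.

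The genes with the most similar pair of values were mostly of photosynthesis. Likeness was the Euclidean distance over log2 FPKM in pkl and in WT, that is over 2 values per locus, and loci of 1 gene were searched. The nearest loci to LHCB4.1 were PSAK (distance 0.052) and PSAG (0.086), both subunits of photosystem I. The nearest to LHCB6 were LHCB3 (0.109) and the photosystem I subunit gene PSAL (0.177). The nearest to LHCB5 were PSAF (0.183), also of photosystem I, and LHCB1.1 (0.211). The nearest to LHCB4.2 were the tonoplast aquaporin gene DELTA-TIP (0.043) and the metallothionein gene MT1C (0.204). At so high a level few loci were available, so the nearest ones are drawn from a small set.

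The major antenna genes, set beside the minor ones, were lower by larger folds in the table. Of 9 genes of LHCB1, LHCB2 and LHCB3, 7 were listed, a share of 77.8% against 14.8% of all tests. Their median log2 fold change was -1.14, against -0.49 for the minor members and -0.60 for all listed loci. LHCB2.3 stood at 169 FPKM in pkl and 480.2 FPKM in WT, 2.84-fold lower. LHCB2.1 was 2.43-fold and LHCB2.2 2.37-fold lower, and LHCB3, with the smallest fold of the group, stood at 2579 FPKM in pkl and 3889 FPKM in WT, 1.51-fold lower. Every listed major gene therefore had a larger fold than LHCB6, LHCB4.1 and LHCB5, while LHCB4.2 exceeded LHCB1.5, LHCB1.1 and LHCB3. LHCB2.2 has a near-identical coding copy in LHCB2.1, and LHCB1.1 has copies in LHCB1.2 and LHCB1.3, so reads of these genes are assigned with uncertainty. The loci of LHCB1.5 and LHCB3 are 4.98 and 5.74 times as long as their genes and run over AT2G34410 and AT5G54280. A share of these values may come from those neighbours, which was not tested.

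All 6 photosystem I antenna genes were listed, against 14.8% of all tests, and their median log2 fold change was -0.72. LHCA4 was 1.76-fold lower in pkl, LHCA1 1.72-fold and LHCA6 1.67-fold. LHCA5, at 170 FPKM in pkl and 199 FPKM in WT, was 1.17-fold lower. The loci of LHCA4 and LHCA5 are 5.04 and 2.48 times as long as their genes and run over AT3G47460 and AT1G45545. In the order of fold over the 17 listed antenna loci, LHCB4.2 was at place 5, LHCB6 at 14, LHCB4.1 at 15 and LHCB5 at 16. The minor members made up 26.4% of the summed FPKM of these 17 loci in pkl and 23.1% in WT. With 1 value per genotype the difference between the antenna groups could not be tested.

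The nuclear subunits of photosystem II had 8 of 12 genes listed, a share of 66.7% against 14.8% of all tests. Their median log2 fold change was -0.49. AT1G51400, annotated as a photosystem II 5 kD protein, was 2.24-fold lower, at 405 FPKM in pkl and 907 FPKM in WT. Its locus is 10.8 times as long as the gene and runs over other annotated protein-coding genes, from which a share may come. PSBW, which helps to hold the antenna to the core, was 1.54-fold lower, though its locus also names AT2G30575, and PSBR was 1.5-fold lower. PSBO2, of the oxygen-evolving complex, had the smallest fold, 1.19.

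Genes that act on the antenna proteins were listed in 5 of 9 cases for energy dissipation and phosphorylation. This share was 55.6%, against 14.8% of all tests. PSBS (AT1G44575), which triggers the rapid dissipation of excess energy, stood at 960.4 FPKM in pkl and 1186 FPKM in WT, 1.23-fold lower. NPQ1 (AT1G08550), the violaxanthin de-epoxidase gene, was 1.51-fold lower and ZEP (AT5G67030), which runs the reverse step of the xanthophyll cycle, was 1.75-fold lower. The antenna kinase gene STN7 (AT1G68830) was 1.62-fold lower, at 32.1 FPKM in pkl and 52.1 FPKM in WT. TAP38 (AT4G27800), the opposing phosphatase gene, was 1.21-fold lower, in a locus that also names AT4G27810.

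Of 10 genes of antenna import and chlorophyll b metabolism 4 were listed, against 14.8% of all tests. CPSRP43 (AT2G47450), a chloroplast signal recognition particle subunit that carries antenna proteins to the thylakoid, was 1.26-fold lower, and ALB3 (AT2G28800), the integrase that inserts them, 1.32-fold lower. CAO (AT1G44446), the chlorophyllide a oxygenase gene that makes chlorophyll b, stood at 22.2 FPKM in pkl and 35.7 FPKM in WT, 1.61-fold lower. NYC1 (AT4G13250), a chlorophyll b reductase gene, was 1.2-fold lower.

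Of 8 transcription factor genes known to act on antenna genes 3 were listed, a share of 37.5% against 14.8% of all tests. GLK2 (AT5G44190), which activates nuclear photosynthesis genes, stood at 11.1 FPKM in pkl and 28.7 FPKM in WT, 2.58-fold lower. GNC (AT5G56860) and GNL (AT4G26150), GATA factors that promote greening, were 1.79-fold and 1.49-fold lower, at 6.54 and 3.66 FPKM in pkl against 11.7 and 5.45 FPKM in WT. GLK1, HY5, HYH, PIF1 and PIF3 had no entry. The Cuffdiff q-values of GLK2 and GNC in the authors' deposited table were 0.000338 and that of GNL was 0.0056.

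**Figure D4:**
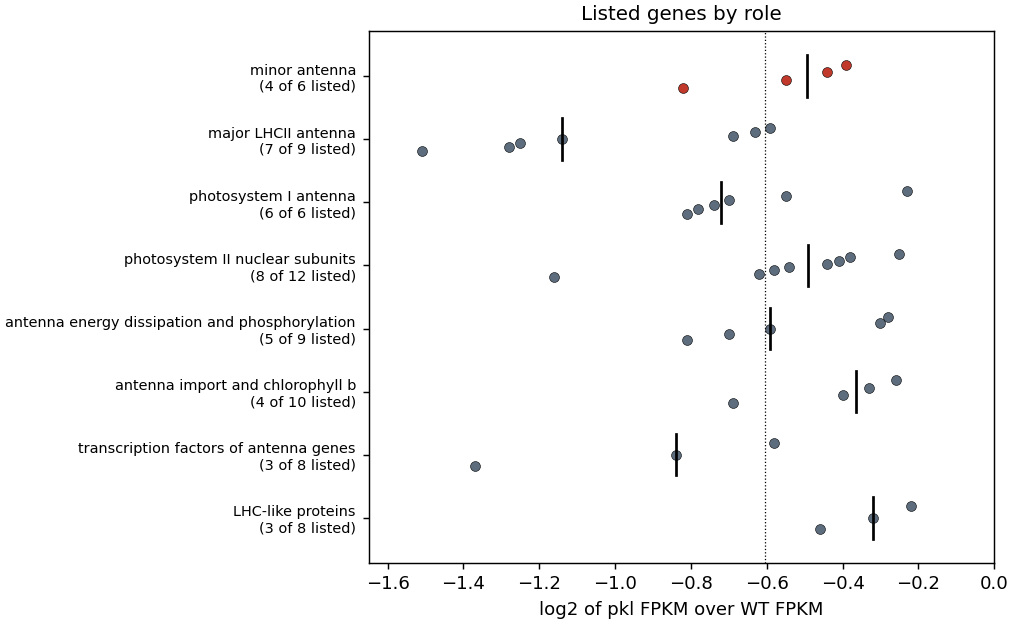
Log2 of pkl over WT FPKM (horizontal axis) of each listed gene, by role, with the minor antenna in red. The vertical bar is the median of the listed genes of a role and the dotted line the median of all listed loci, -0.60. Genes without an entry are not drawn, so a row shows only genes lower in pkl.

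Markers of tissue were also in the table, which held 14.8% of all tests. Of 10 markers of green tissue (enzymes of carbon fixation) 2 were listed, RBCS2B at 1.41-fold and PRK at 1.21-fold lower, and the other 8, RBCS1A and CA1 among them, had no entry. Of 14 root markers 7 were listed, with a summed level of 63.9 FPKM in pkl and 115 FPKM in WT and folds from 1.39 to 3.30. No listed marker was at 0. The part of a different share of green or root tissue in the values of the antenna genes was not tested.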

How the data were processed

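The submitters' processing notes name TopHat, Cufflinks (version 2.1.1), Cuffdiff (version 2.1.1) and the TAIR10 genome. The deposited table held 1 FPKM per genotype and locus, and the authors' log2 fold change, test statistic (a signed score, not used further), p-value and q-value, per the file headers. The deposited log2 fold change matched the log2 ratio of the FPKM columns to within 1.2e-05. No fit of separate libraries was possible, so no test was added to the authors' own. The number of tests, 19554, is the whole number that makes the ranks implied by p and q whole (largest deviation 0.017, next best 0.311), a step tested on simulated data.

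The members were found by splitting the gene column at commas. Members and lists were chosen with earlier results of these data known. All members were named, and of each other list all listed genes, or the 3 largest folds and the smallest where over 5 were listed. Table starts count from 0 and are printed from 1: 353 single-gene loci then began at the annotated start, against 18 otherwise. Symbols, gene models and sequences are from RefSeq TAIR10.1, and all 2740 annotated single-gene loci overlapped their gene in it. Coding sequences were compared with BLAST+ 2.17.0 and Biopython 1.88. Alternatives were pseudocounts, a stricter q, a minimum fold or level, Bonferroni adjustment and leaving out merged loci.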

Additional observations from a re-analysis of the deposited data

How the results depend on the processing

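Pseudocounts of 0.1 and 1 FPKM cannot change the direction of the 4 listed members, since each is added to both values. The log2 fold changes hardly moved, and that of LHCB4.2 went from -0.8171 to -0.8164 with 1 FPKM. With a minimum of 2-fold no member was left (0 of 4), since their log2 fold changes were -0.44 (LHCB4.1), -0.82 (LHCB4.2), -0.39 (LHCB5) and -0.55 (LHCB6). With q under 0.01, LHCB5 (-0.39, q of 0.0294 in the authors' deposited table) lost its call and 3 members were left. Bonferroni adjustment left 0, but no listed locus could pass it, because the smallest Cuffdiff p listed gives an adjusted p of 0.978. It therefore says nothing about the members. Leaving out loci that name several genes left 3 members, with a median log2 fold change of -0.55. Leaving out those that overlap another annotated protein-coding gene, an alternative chosen after seeing the data, left 1, LHCB5, at -0.39. The median of all listed loci was -0.51 with a pseudocount of 1 FPKM, -0.53 with a minimum of 5 FPKM in WT and -0.61 for loci of 1 gene. No paired analysis was possible because each genotype has a single value in it, and leaving out each replicate was not run for the same reason. Loci that were higher in pkl or did not pass were not analysed here, and the depth is unknown.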

Other observations

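Of 8 genes for LHC-like proteins, relatives of the antenna proteins, 3 were listed, a share of 37.5% against 14.8% of all tests. For 2 of the 3 the fold was below those of the minor antenna. OHP1 (AT5G02120), needed for the assembly of photosystem II reaction centres, stood at 231 FPKM in pkl and 318 FPKM in WT, 1.37-fold lower. OHP2 (AT1G34000), its partner, was 1.24-fold lower and SEP1 (AT4G34190), a stress-enhanced protein gene, 1.17-fold lower. The early light-induced genes ELIP1 and ELIP2 had no entry.

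Some listed loci lay close to members on their chromosomes. AT2G40110, annotated as a Yippee family protein, begins 516 bases beyond LHCB4.3 and stood at 29.7 FPKM in pkl and 44.7 FPKM in WT. AT1G76580, annotated as an SBP domain transcription factor, begins 3368 bases beyond LHCB7 and stood at 8.11 FPKM in pkl and 10.2 FPKM in WT. The nearest listed locus to LHCB5 was 10778 bases away (AT4G10360, 1.31-fold lower), and those of LHCB4.1, LHCB4.2 and LHCB6 were at least 23385 bases away, with 7 or more protein-coding genes between.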
